A study of Homo sapiens with 8 samples.

Results

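Proteasome subunit and assembly factor genes were measured in BCPAP cells, a line derived from a papillary thyroid carcinoma, after knockdown of *EPB41L4A*. Genes were included where the array annotation gave a probe set 1 symbol only, made of PSMA, PSMB, PSMC, PSMD, PSME, PSMF or PSMG and a number. Where a gene had several such probe sets, the brightest over all arrays stood for it. This gave 44 genes out of 33616 with such a probe set, and all 44 passed the filter on low values, as did 22465 genes in all. Antisense genes, pseudogenes and genes with any other symbol were left out, also where they encode a subunit, as *ADRM1* does. *PSMC5*, *PSMD7*, *PSMD13* and *PSME2* were not analysed here, since no probe set carried their symbol alone.

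Cells were transfected with a pool of siRNAs against *EPB41L4A* (si*EPB41L4A*, 4 arrays) or with a non-targeting pool (si*NS*, 4 arrays), and RNA was taken after 72 h. Both groups had the same cell line, transfection reagent and time, and the experiment was run on 4 occasions. One cell line and 1 pool per group were used, so an effect of the pool apart from its target cannot be told apart from that of the knockdown. The sample records of the groups are numbered far apart, and whether their arrays were processed together is not known from them. Any difference in processing between the groups could not be told apart from the knockdown either. All values are log2 values from RMA, the authors' background correction, normalization and summary of probes, so a difference of 1 is a change by a factor of 2 on that scale.

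The proteasome breaks down proteins that carry chains of ubiquitin. Its barrel, the 20S core, is built of outer rings of alpha subunits and inner rings of beta subunits, and the cutting sites lie on the beta subunits facing the inside. A 19S cap, made of a base with a ring of ATPases and of a lid, binds the ubiquitin chain, removes it and feeds the unfolded protein into the core. In cells exposed to interferon, inducible beta subunits replace the constitutive cutting ones, which makes the immunoproteasome, and alternative activators of the PSME family can take the place of the 19S cap. Immunoproteasomes supply peptides for display on MHC class I molecules.

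The 8 arrays had medians of 3.72 to 3.84 and correlated at 0.968 to 0.981 over all probe sets. *EPB41L4A* was lower in si*EPB41L4A* cells (6.33 ± 0.70) than in si*NS* cells (9.53 ± 0.26; SD, n = 4 each), which is a difference of -3.20 on the log2 scale (limma, adjusted p = 0.000491). For the si*NS* samples, 1 field of the labels gives an siRNA to a different gene, and the si*NS* of their titles and source names was followed. The thyroid transcription factor genes *PAX8*, *NKX2-1* and *FOXE1* were detected, at means of 13.30, 9.05 and 7.32, and *TG*, *TSHR* and *SLC5A5* lay below the filter in this tumour line. Of the leukocyte markers, *PTPRC*, *CD3E* and *LYZ* lay at 3.89 to 4.11, close to the negative control probes (4.05 to 4.29 by array), and *CD68* lay at 12.49 (log2 change -1.14, adjusted p = 0.378). The fibroblast markers *COL1A1*, *LUM* and *DCN* lay at 8.93, 7.76 and 5.1, above the negative controls on all arrays. Their log2 changes were -0.58, 0.03 and -0.26, and none was called. *VWF* and *CDH5*, endothelial markers, lay at 4.59 and 3.81. *PDGFRA* (fibroblast) and *PECAM1* (endothelial) lay below the filter. The epithelial marker *EPCAM* was lower in si*EPB41L4A* cells (5.72 ± 0.44) than in si*NS* cells (8.16 ± 0.88; log2 change -2.43, adjusted p = 0.00683). The other epithelial markers were not called, with changes of -1.02 for *KRT8* (adjusted p = 0.109), -0.55 for *KRT18* and 0.15 for *KRT19*. By array, the mean over all 4 epithelial markers was 9.44 to 10.27 in si*EPB41L4A* cells and 10.29 to 11 in si*NS* cells, and that over the 4 leukocyte markers 5.56 to 6.27 in si*EPB41L4A* cells and 5.91 to 6.79 in si*NS* cells. Their part in the results on proteasome genes was not tested.

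Most proteasome genes were lower in si*EPB41L4A* cells than in si*NS* cells, by amounts of which all but 1 missed the threshold for a single gene. The log2 change was below 0 for 37 of 44 genes (84.1%) and above 0 for 7, against 55.6% below 0 among all genes tested and 54.7% among the 2525 genes with a mean of 12 or more. Its median was -0.41 and its range -1.14 to 0.51, and the median over all genes, as over those with a mean of 12 or more, was -0.06. One gene, *PSMB6*, was called lower at an adjusted p under 0.05 and none was called higher. Of all genes tested, 2.96% were called lower and 2.55% higher (of all 66831 probe sets, 1.38% and 1.23%). Among the 2525 genes with a mean of 12 or more, 158 were called lower and 135 higher. At an unadjusted p under 0.05, 15 of 44 genes were lower (34.1%) and 0 were higher, where 12.7% of all genes were lower and 9.53% higher, and where 19% of the genes with a mean of 12 or more were lower. In 8 of the 44 genes (18.2%) every si*EPB41L4A* array lay below every si*NS* array, and in 0 above, set beside 7.85% below and 6.53% above among all genes and 14.3% below among genes with a mean of 12 or more. The genes were measured on the same arrays and are not independent of one another. By array, the mean over all 44 genes was 11.91 to 12.48 in si*EPB41L4A* cells and 12.38 to 12.8 in si*NS* cells. These ranges overlapped. In a bulk culture, fewer cells that express a gene and less RNA per cell cannot be told apart.

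**Figure D1:**
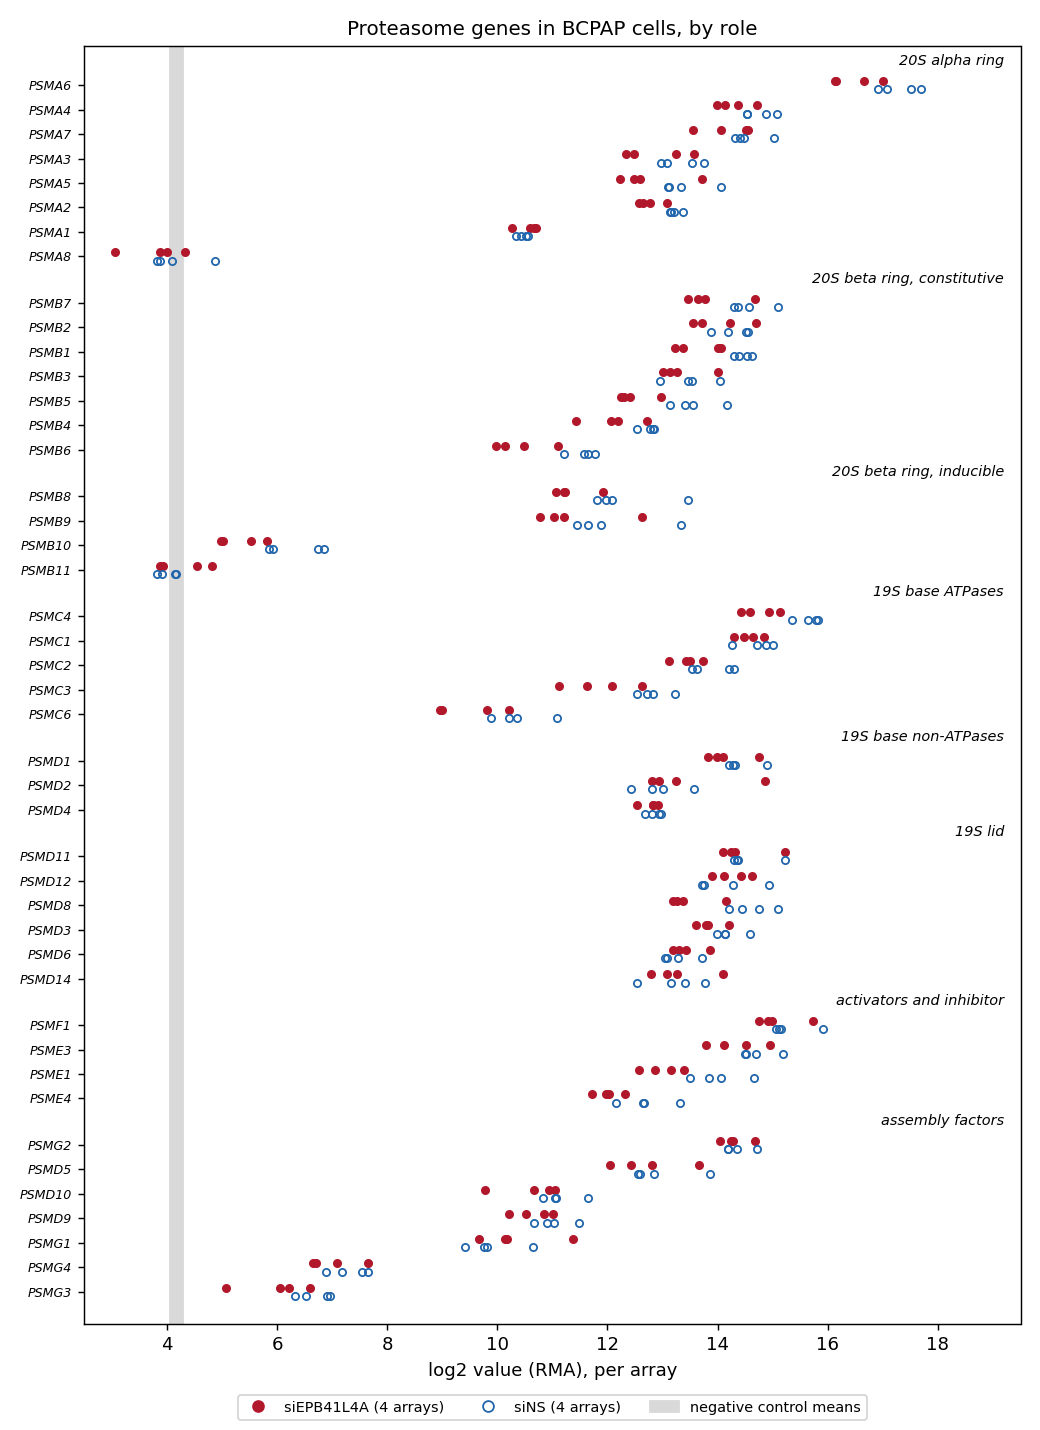
Log2 values (RMA) of the 44 proteasome genes on each array, in rows by role, with filled red points for the 4 si*EPB41L4A* arrays, open blue points for the 4 si*NS* arrays and a grey band for the range of negative control means (4.05 to 4.29). Points are to be compared within a row only, since probe sets differ in brightness; *PSMA8* and *PSMB11* lie at the band and the other 42 genes lie above it on all arrays.

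Nearly all proteasome genes were detected. In all, 42 of 44 genes lay above the mean of the negative control probes on all 8 arrays. The exceptions were *PSMA8*, an alpha subunit of the testis, which exceeded it on 1 si*EPB41L4A* array and 2 si*NS* arrays, and *PSMB11*, the beta subunit of the thymus, which exceeded it on 2 si*EPB41L4A* arrays and 0 si*NS* arrays. Differences of these 2 genes therefore compare values at background. *PSMA6* had a mean of 16.89 over the 8 arrays, above 16, the log2 of the largest value that a 16-bit scanner records, so the deposited scale is not the plain log2 of scanner signal and the size of a log2 change may be stretched or compressed at such values.

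The constitutive beta subunits held the gene that passed the test. All 7 had a log2 change below 0, with a median of -0.69, and 5 of the 7 had an unadjusted p under 0.05. Their mean by array was 12.41 to 13.46 in si*EPB41L4A* cells and 13.39 to 13.85 in si*NS* cells, with overlap. *PSMB6* encodes the caspase-like cutting subunit. Its values were 10.49, 10.14, 9.98 and 11.11 in si*EPB41L4A* cells, against 11.65, 11.21, 11.57 and 11.77 in si*NS* cells. The groups did not overlap, and the gap between the nearest arrays was narrow. *PSMB6* fell by 1.12 (standard error 0.27, adjusted p = 0.0487, limma; exact two-sided permutation p = 0.0286, the smallest that 4 arrays against 4 allow). The call was lost on leaving out any array other than replicate 4 of si*EPB41L4A* (adjusted p = 0.0701 to 0.148), and without the filter on low values (adjusted p = 0.0679).

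*PSMB5*, the chymotrypsin-like subunit and the target of bortezomib, lay at 12.41, 12.30, 12.24 and 12.97 in si*EPB41L4A* cells, against 13.14, 13.56, 13.41 and 14.17 in si*NS* cells. All si*EPB41L4A* arrays were again below all si*NS* arrays, and the change of -1.09 (standard error 0.27, adjusted p = 0.0537) missed the threshold. *PSMB7*, the trypsin-like subunit, averaged 13.90 ± 0.54 in si*EPB41L4A* cells and 14.58 ± 0.36 in si*NS* cells (SD, n = 4 each; log2 change -0.69, adjusted p = 0.308). Its groups overlapped, because replicate 4 of si*EPB41L4A*, at 14.68, lay above 3 of the si*NS* arrays. The genes of all 3 constitutive cutting subunits thus had lower means in si*EPB41L4A* cells, with 1 called.

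The other beta subunits have no cutting site of their own and shape the inner rings. *PSMB1* had no overlap between groups, at 14.00, 13.37, 13.23 and 14.06 in si*EPB41L4A* cells against 14.63, 14.39, 14.30 and 14.54 in si*NS* cells (log2 change -0.80, adjusted p = 0.12). *PSMB4* averaged 12.10 ± 0.53 in si*EPB41L4A* cells and 12.74 ± 0.14 in si*NS* cells (log2 change -0.64, adjusted p = 0.295). *PSMB2* and *PSMB3* had the smallest differences among these subunits, -0.24 and -0.15 (adjusted p = 0.795 and 0.892), and their arrays overlapped.

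**Figure D2:**
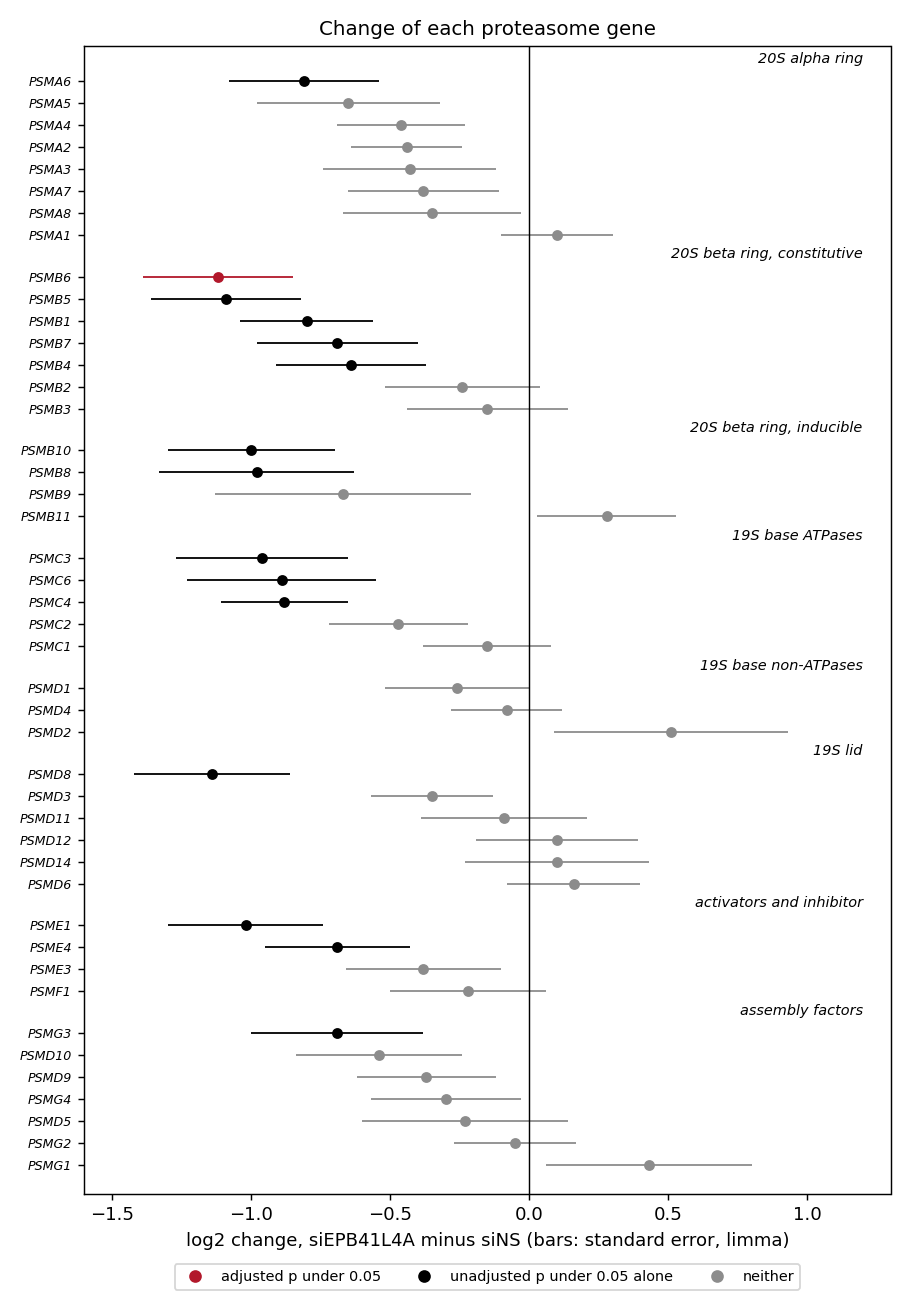
Log2 change (si*EPB41L4A* minus si*NS*, horizontal axis) of each of the 44 proteasome genes by role, with bars for limma's standard error, red for an adjusted p under 0.05, black for an unadjusted p under 0.05 alone and grey for neither. Points of the constitutive beta subunits and of the base ATPases all lie left of 0, *PSMB6* is the red one at -1.12, and 3 of 6 lid genes lie at or right of 0.10.

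The alpha subunits form the outer rings and their gate. Of 8 genes, 7 had a log2 change below 0, with a median of -0.44, and 1 had an unadjusted p under 0.05. That gene was *PSMA6*, at 17.01, 16.15, 16.65 and 16.14 in si*EPB41L4A* cells against 17.70, 16.91, 17.51 and 17.07 in si*NS* cells (log2 change -0.81, standard error 0.27, adjusted p = 0.167). Only replicate 1 of si*EPB41L4A* reached into the si*NS* range. *PSMA2* had the groups apart by a narrow margin, at 12.65, 12.78, 12.57 and 13.09 in si*EPB41L4A* cells against 13.16, 13.20, 13.38 and 13.13 in si*NS* cells (log2 change -0.44, adjusted p = 0.363). *PSMA5*, *PSMA4*, *PSMA3* and *PSMA7* had changes of -0.65, -0.46, -0.43 and -0.38, all with overlapping arrays, and *PSMA1* had 0.10 (adjusted p = 0.901).

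In the 19S base, the ATPases and the 3 other members differed in their medians. The ATPases pull the substrate into the core. All 5 measured had a log2 change below 0 (median -0.88), 3 with an unadjusted p under 0.05. *PSMC3* averaged 11.86 ± 0.64 in si*EPB41L4A* cells and 12.82 ± 0.29 in si*NS* cells (log2 change -0.96, adjusted p = 0.146), and *PSMC6* averaged 9.49 ± 0.62 in si*EPB41L4A* cells and 10.38 ± 0.51 in si*NS* cells (log2 change -0.89, adjusted p = 0.239; SD, n = 4 each). Arrays of both genes overlapped between the groups. *PSMC2* and *PSMC1* had changes of -0.47 and -0.15 (adjusted p = 0.437 and 0.858).

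*PSMC4* was the gene whose call depended on the probe set. It had 7 single-symbol probe sets, and the brightest was 1 of 6 that carried no gene identifier in the annotation. By that set it lay at 15.13, 14.59, 14.42 and 14.93 in si*EPB41L4A* cells, against 15.82, 15.35, 15.65 and 15.78 in si*NS* cells (log2 change -0.88, standard error 0.23, adjusted p = 0.0665). The set with the gene identifier read 10.10, 9.62, 9.92 and 10.96 in si*EPB41L4A* cells, against 11.86, 11.67, 11.73 and 12.19 in si*NS* cells. By this set *PSMC4* fell by 1.71 (standard error 0.29, adjusted p = 0.00843), past the threshold. Groups were apart in both sets, and the second one was singled out after its values were seen. Of the 7 sets, 6 were tested and 3 had no overlap between groups. Among the 5 other genes with more than 1 set, none had a set without overlap.

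The 3 members of the base that are not ATPases had a median change of -0.08. *ADRM1*, a further base subunit whose symbol kept it out of the members, had a change of -1.12 (adjusted p = 0.102, limma) and is described below. *PSMD4*, a ubiquitin receptor, averaged 12.77 ± 0.16 in si*EPB41L4A* cells and 12.85 ± 0.13 in si*NS* cells (SD, n = 4 each; log2 change -0.08, standard error 0.20). *PSMD1*, a scaffold, had a change of -0.26 (adjusted p = 0.748). *PSMD2*, the scaffold that docks ubiquitin-like domains, had the highest change of all 44 genes and did not pass the test, at 12.94, 13.25, 12.80 and 14.86 in si*EPB41L4A* cells against 12.80, 13.01, 12.42 and 13.57 in si*NS* cells (log2 change 0.51, standard error 0.42, adjusted p = 0.673). Replicate 4 was the highest array of each group and the groups overlapped. Without replicate 4 of si*EPB41L4A* the change was 0.04, so its size and rank rest on that array.

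Among the 6 lid genes, 1 stood apart in size. *PSMD8*, a structural subunit of the lid, lay at 13.37, 13.26, 13.19 and 14.15 in si*EPB41L4A* cells, against 14.21, 14.45, 14.76 and 15.09 in si*NS* cells. The groups did not overlap. Its change, -1.14 (standard error 0.28, adjusted p = 0.052), missed the threshold and was the lowest of all 44 genes by their brightest probe sets. *PSMC4* had a lower change, -1.71, by its set with the gene identifier. The median over the lid was 0.00. *PSMD14*, the enzyme that cuts the ubiquitin chain off the substrate, averaged 13.31 ± 0.56 in si*EPB41L4A* cells and 13.21 ± 0.52 in si*NS* cells (SD, n = 4 each; log2 change 0.10, standard error 0.33). *PSMD11*, which clamps the lid to the core, lay at 14.10, 14.31, 14.24 and 15.22 in si*EPB41L4A* cells against 14.37, 14.35, 14.29 and 15.23 in si*NS* cells (log2 change -0.09, standard error 0.30). The groups overlapped, and replicate 4 was the highest in each. *PSMD3*, *PSMD12* and *PSMD6* had changes of -0.35, 0.10 and 0.16 (adjusted p = 0.552 to 0.936). Whether the change of the lid genes differs from that of the beta subunits was not tested.

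**Figure D3:**
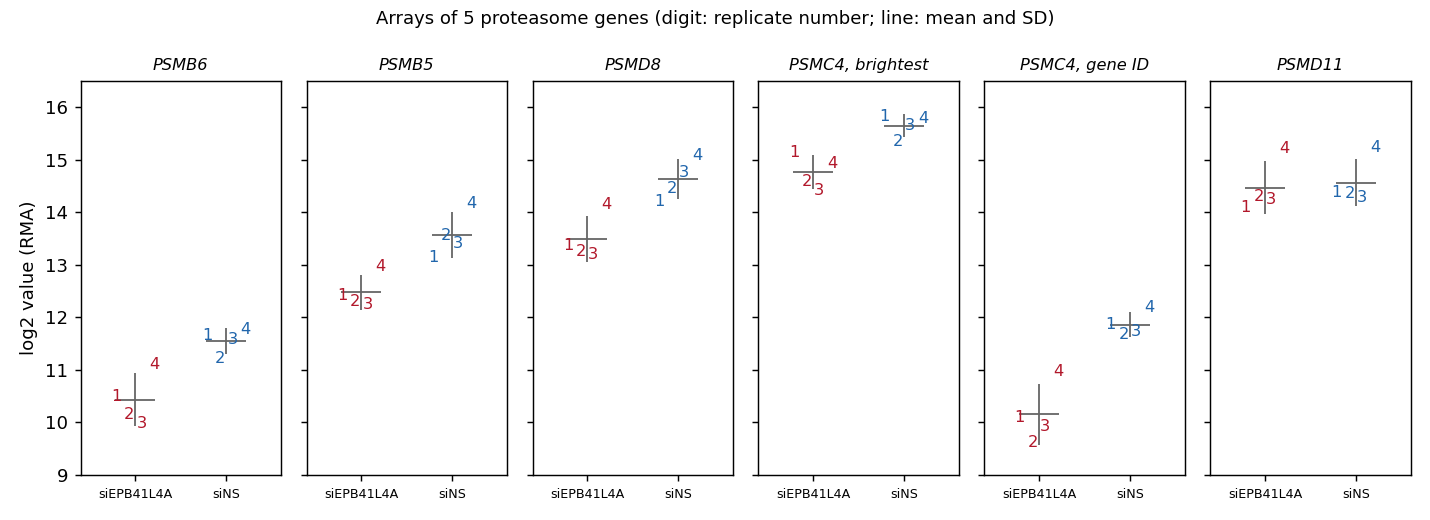
Log2 values (RMA) of *PSMB6*, *PSMB5*, *PSMD8*, both described probe sets of *PSMC4*, and *PSMD11*, each array drawn as its replicate number with si*EPB41L4A* left (red) and si*NS* right (blue), and lines for the mean and SD (n = 4). The groups are apart in all panels but that of *PSMD11*, whose replicate 4 is near 15.2 in both groups.

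The inducible genes were measured for the 3 cutting subunits of the immunoproteasome, which all had lower means in si*EPB41L4A* cells and none of which was called. *PSMB8* replaces *PSMB5*. It lay at 11.07, 11.22, 11.92 and 11.21 in si*EPB41L4A* cells, against 11.81, 12.09, 13.46 and 11.97 in si*NS* cells (log2 change -0.98, standard error 0.35, adjusted p = 0.205). Replicate 3 was the highest of each group, and in si*EPB41L4A* it was the only array above the lowest si*NS* array. Without replicate 3 of si*NS* the change was -0.60. *PSMB9*, the counterpart of *PSMB6* and a neighbour of *PSMB8* in the MHC region, lay at 11.21, 11.02, 12.62 and 10.78 in si*EPB41L4A* cells against 11.64, 11.89, 13.33 and 11.44 in si*NS* cells (log2 change -0.67, standard error 0.46, adjusted p = 0.592). Here too replicate 3 was the highest of each group, and the groups overlapped. The change was -1.07 without replicate 3 of si*EPB41L4A* and -0.25 without replicate 3 of si*NS*. *PSMB10*, the counterpart of *PSMB7*, lay at 4.98, 5.02, 5.82 and 5.53 in si*EPB41L4A* cells against 6.85, 5.85, 6.74 and 5.92 in si*NS* cells (log2 change -1.0, standard error 0.30, adjusted p = 0.113). Its groups did not overlap, and its si*EPB41L4A* arrays lay nearer than its si*NS* arrays to the negative controls (4.05 to 4.29).

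Of the activators, *PSME1*, a subunit of the interferon-inducible ring, lay at 13.15, 12.87, 13.39 and 12.57 in si*EPB41L4A* cells, against 14.06, 13.84, 14.66 and 13.49 in si*NS* cells. All si*EPB41L4A* arrays were below all si*NS* arrays, and the change of -1.02 (standard error 0.28, adjusted p = 0.0857) missed the threshold. *PSME4*, an activator of the nucleus known for work on histones, lay at 12.31, 11.97, 11.72 and 12.02 in si*EPB41L4A* cells against 13.32, 12.65, 12.16 and 12.66 in si*NS* cells (log2 change -0.69, adjusted p = 0.233), with replicate 1 the highest of each group. *PSME3*, a nuclear ring that interferon does not induce, had a change of -0.38, and *PSMF1*, described as an inhibitor of the core, one of -0.22 (adjusted p = 0.622 and 0.816).

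Promoters of 3 of these interferon-inducible genes are shown, and they were picked with their changes, near -1, already known. A word shared by them is therefore no test of a link with the change. Sequences are from RefSeq on GRCh38.p14, on the gene's own strand, with 100 bases before the listed start of transcription and the first 20 transcribed ones. Capitals mark matches, on either strand, to the core of the interferon-stimulated response element (GAAA, any 2 bases and GAAA again), TTCNNNGAA (core of the gamma-activated site) or TGACNNNGC (core of the antioxidant response element). *PSMB9* and *PSMB5* are added for comparison.
PSMB8 chr6:32844028-32844147, minus strand: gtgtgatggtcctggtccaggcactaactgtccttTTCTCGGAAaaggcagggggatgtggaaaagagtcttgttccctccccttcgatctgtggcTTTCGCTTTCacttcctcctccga
PSMB10 chr16:67936831-67936950, minus strand: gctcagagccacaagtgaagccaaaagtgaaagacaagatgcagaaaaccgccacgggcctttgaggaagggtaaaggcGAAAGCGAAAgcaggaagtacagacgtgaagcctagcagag
PSME1 chr14:24136094-24136213, plus strand: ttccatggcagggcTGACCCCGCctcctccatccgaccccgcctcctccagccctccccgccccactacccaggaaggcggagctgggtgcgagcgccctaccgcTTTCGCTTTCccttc
PSMB9 chr6:32854092-32854211, plus strand: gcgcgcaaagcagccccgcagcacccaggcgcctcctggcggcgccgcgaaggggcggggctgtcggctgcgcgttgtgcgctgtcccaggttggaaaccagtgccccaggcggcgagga
PSMB5 chr14:23034881-23035000, minus strand: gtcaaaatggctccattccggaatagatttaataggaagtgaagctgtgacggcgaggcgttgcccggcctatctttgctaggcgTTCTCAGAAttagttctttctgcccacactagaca

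*PSMB8*, *PSMB10* and *PSME1* held the same 10 letters, GAAAGCGAAA, on 1 strand or the other and close to the start. This word was singled out after the sequences were seen. It occurred in 35 of 35116 promoters of 250 bases before to 50 after the start (0.0997%). The only other member with it was *PSMG4*, whose promoter is not shown and whose log2 change was -0.30 (adjusted p = 0.721). The stretch of *PSMB9* held none of the 3 motifs. A promoter was listed for 38 of the 44 genes (46 promoters), with none matched for *PSMB6*. The interferon-stimulated core was found in 6 of the 46 (13.0%) against 3.57% of all promoters, TTCNNNGAA in 8 (17.4%) against 7.66%, and TGACNNNGC in 13 (28.3%) against 13.3%, and matches of different motifs did not overlap. The median change was -0.81 for the 6 genes with the interferon-stimulated core and -0.35 for the 32 without, -0.41 and -0.34 with and without TTCNNNGAA, and -0.35 and -0.43 with and without TGACNNNGC. The 6 genes with the interferon-stimulated core include *PSMB8*, *PSMB10* and *PSME1*, so their median is not separate from the shared word. All of these sites are matches of letters, and binding was not measured.

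Assembly factors bring the subunits together and are not in the finished particle. Of 7 measured, 6 had a change below 0 (median -0.30) and none was called. *PSMG1* and *PSMG2* form a chaperone of the alpha ring and had changes of 0.43 and -0.05 (adjusted p = 0.687 and 0.961), that of *PSMG1* being 0.08 without replicate 4 of si*EPB41L4A*. *PSMG3* pairs with *PSMG4* and averaged 5.99 ± 0.65 in si*EPB41L4A* cells and 6.68 ± 0.31 in si*NS* cells (SD, n = 4 each; log2 change -0.69, adjusted p = 0.344). Chaperones of the ATPase ring, *PSMD10*, *PSMD9* and *PSMD5*, had changes of -0.54, -0.37 and -0.23 (adjusted p = 0.466 to 0.863). Arrays of all 7 genes overlapped between the groups.

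Array to array, core and inducible genes differed in which replicate was highest. Among the 38 genes left after setting aside *PSMB8*, *PSMB9*, *PSMB10*, *PSME1* and the tissue-restricted *PSMA8* and *PSMB11*, replicate 4 was the highest array for 28 genes in si*EPB41L4A* and for 27 in si*NS*. Their median deviation from the group mean in that replicate was 0.42 in si*EPB41L4A* and 0.39 in si*NS*. Replicate 3 was the lowest for 23 of these genes in si*EPB41L4A* and for 18 in si*NS*. The 4 interferon-inducible genes ran the other way, with replicate 3 the highest for 4 of 4 in si*EPB41L4A* (median deviation 0.52) and for 3 of 4 in si*NS* (0.89). The sources do not tie a replicate number to an occasion of the experiment. The main fit did not model these array differences, and a replicate block is among the alternative settings given below. Without both arrays numbered 4, 2 proteasome genes were called lower, and without both numbered 3, 0 were.

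**Figure D4:**
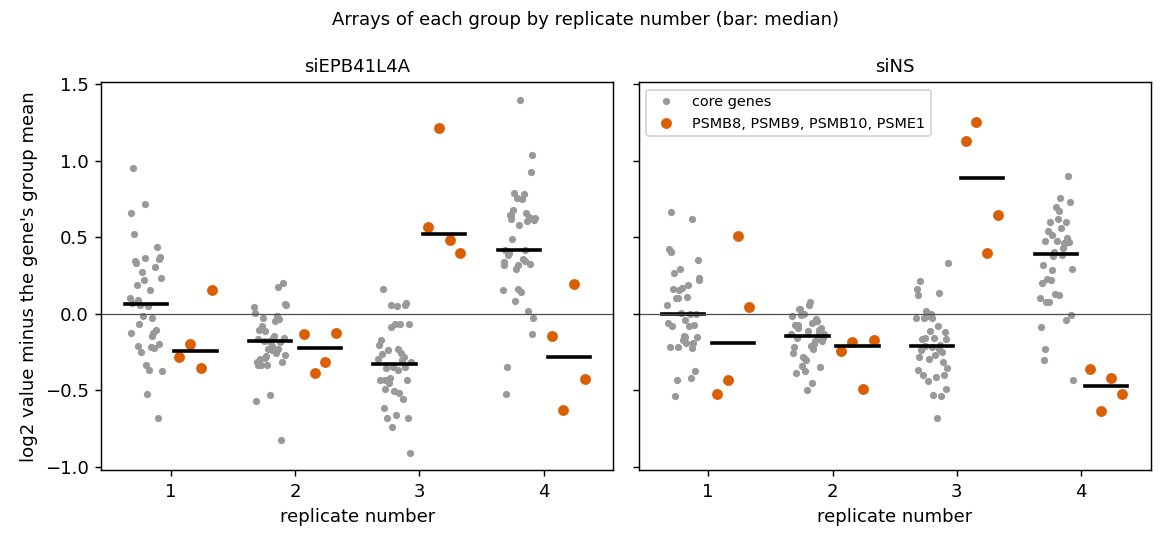
Deviation of each log2 value from the gene's group mean (vertical axis) by replicate number, in si*EPB41L4A* (left) and si*NS* (right), with grey points for 38 core genes, orange points for *PSMB8*, *PSMB9*, *PSMB10* and *PSME1*, and bars for medians. In both groups the core genes are highest in replicate 4 (medians 0.42 and 0.39) and the orange genes in replicate 3 (0.52 and 0.89).

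Genes that act with the proteasome were read from a list of 25 tested genes (ubiquitin receptors, shuttles, ubiquitin, its activating enzymes, chaperones and regulators). It had 1 gene called higher and 0 lower, where 2.55% and 2.96% of all genes were called. At an unadjusted p under 0.05, 5 were lower (20%) and 3 higher, where 12.7% of all genes were lower and 9.53% higher. Among genes with a mean of 12 or more, 19% were lower, near the share of this list, whose median level was 12.17. The list's median change was -0.26, against -0.06 for all genes. The called gene was *UBA6*, a second activating enzyme for ubiquitin, which lay at 11.38, 11.96, 12.52 and 12.27 in si*EPB41L4A* cells against 10.68, 10.53, 11.10 and 10.98 in si*NS* cells and rose by 1.21 (standard error 0.27, adjusted p = 0.0356). Its groups did not overlap, and the call was lost on leaving out any array but replicate 1 of si*EPB41L4A* (adjusted p = 0.0547 to 0.107). *ADRM1*, a ubiquitin receptor of the 19S base, lay at 9.72, 9.55, 9.63 and 10.60 in si*EPB41L4A* cells against 10.65, 10.78, 10.69 and 11.87 in si*NS* cells (log2 change -1.12, standard error 0.32, adjusted p = 0.102), also without overlap. *UBE3C*, a ubiquitin ligase that works on the proteasome, had a change of -0.76 (adjusted p = 0.351).

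Transcription factors of the CNC family bind antioxidant response elements, and NFE2L1 is known to raise proteasome genes when the proteasome is blocked. *NFE2L1*, named after its values were seen, averaged 14.75 ± 0.44 in si*EPB41L4A* cells and 15.24 ± 0.33 in si*NS* cells (SD, n = 4 each; log2 change -0.49, adjusted p = 0.464). *NFE2L2*, the oxidative stress factor of the family, averaged 12.61 ± 0.36 in si*EPB41L4A* cells and 11.88 ± 0.18 in si*NS* cells (log2 change 0.73, standard error 0.23, adjusted p = 0.144), with every si*EPB41L4A* array above every si*NS* array. Neither was called.

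The 11 tested antigen processing genes, which use the peptides of the immunoproteasome, had a median change of -0.39, against -0.06 for all genes, with 1 called lower and 0 higher where 2.96% and 2.55% of all genes were called. That gene, *ERAP1*, trims peptides in the endoplasmic reticulum and lay at 11.50, 12.23, 12.38 and 11.34 in si*EPB41L4A* cells against 12.96, 13.35, 13.30 and 12.86 in si*NS* cells. It fell by 1.25 (standard error 0.27, adjusted p = 0.0324), and the groups did not overlap. This call held only without replicate 3 of si*EPB41L4A* or replicate 4 of si*NS*, and leaving out any other array lost it (adjusted p = 0.0524 to 0.0971). *IRF1*, a transcription factor of interferon responses, averaged 8.45 ± 1.40 in si*EPB41L4A* cells and 9.57 ± 0.57 in si*NS* cells (SD, n = 4 each; log2 change -1.12, adjusted p = 0.411). The change was -0.56 without replicate 4 of si*EPB41L4A*, the lowest array, and -1.68 without its replicate 3. *B2M*, the light chain of MHC class I, had a change of 0.09, as did *ERAP2* (adjusted p = 0.958 and 0.94). As in the inducible proteasome genes, replicate 3 was the highest array for 10 of the 12 genes measured in si*EPB41L4A* (median deviation 0.65) and for 9 of 12 in si*NS* (0.67).

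Shorter genes tended to lower changes, among proteasome genes and among all genes. By RefSeq gene length, Spearman's rho between length and log2 change was 0.37 over the 44 proteasome genes, 0.19 over 22118 genes with a length and 0.28 over the 2516 of these with a mean of 12 or more, given as a description over genes that share the same arrays. The 7 proteasome genes of up to 5 kb had a median change of -0.98, against -0.11 for all genes of that length and -0.24 for those with a mean of 12 or more. These genes include the interferon-inducible *PSMB8*, *PSMB10* and *PSME1* (-0.98, -1.0 and -1.02) and *PSMB11*, which lay at background. Length and inducible role are therefore mixed in this class. From 5 to 10 kb the medians were -0.60 for 8 proteasome genes, -0.13 for all genes and -0.26 for the brighter ones. The 8 proteasome genes over 50 kb had a median of -0.24, against 0.06 for all genes and 0.12 for the brighter ones. In each of the 5 length classes the proteasome median was thus the lowest of the 3. After a smooth trend on length was taken off each array, the proteasome median was -0.36, 36 of 44 changes were below 0, and 14 genes were lower at an unadjusted p under 0.05 with 11.3% of all genes so. *PSMB5*, *PSMB6*, *PSMC4* and *PSMD8* were then called lower, with p-values adjusted over 22118 genes in place of the 66831 probe sets of the main fit. All 4 changes were smaller in size than in the main fit, as for *PSMB5* (-0.97 against -1.09) and *PSMD8* (-1.02 against -1.14). A stricter filter on low values, at the 75th percentile, called the same 4 genes with the length trend left in. Whether the added calls came from the trend or from the smaller number of tests was not tested.

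**Figure D5:**
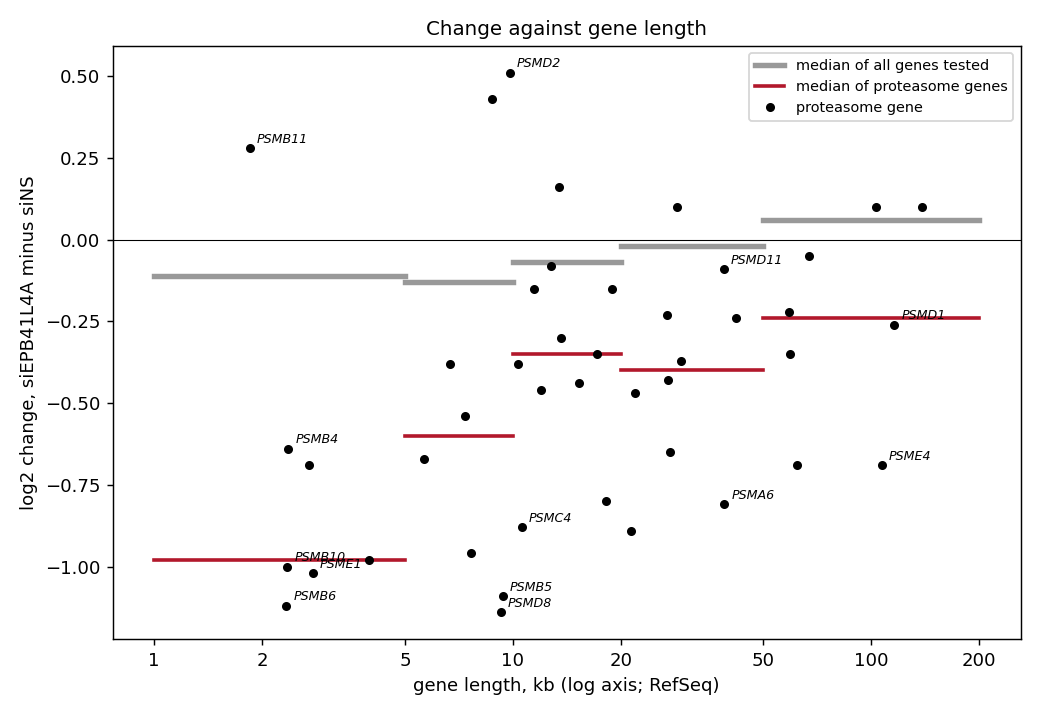
Log2 change (si*EPB41L4A* minus si*NS*) of each proteasome gene against its RefSeq gene length in kb (log axis), with red lines for the proteasome median and grey lines for the median of all genes tested in each length class (the outer classes, up to 5 kb and over 50 kb, are drawn over part of their span). The red line lies below the grey line in all 5 classes, from -0.98 up to 5 kb to -0.24 over 50 kb.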

How the data were processed

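Total RNA of BCPAP cells was hybridized to Clariom D Human arrays. The authors processed the signals by RMA in Affymetrix Expression Console, and the deposited log2 values per probe set were taken without further normalization. Neither the version of that software nor the genome build is stated in the sources. Precision is limited by the number of arrays, which carry no read depth.

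Besides 2995 control rows, the table has 135750 probe sets. Those over the median of their array on 4 or more of the 8 arrays (66831) were tested with limma 3.58.1 under R 4.3.3, as si*EPB41L4A* minus si*NS* and without a block. P-values were adjusted by Benjamini-Hochberg over all of these, at a threshold of 0.05. Single genes were also tested by exact two-sided permutation. The limma step was tested on simulated data. The annotation gives 1 symbol to 36176 probe sets and several to 1119, and no gene was taken from a set with several. Of 48 RefSeq genes with a symbol of the kind chosen, 44 had a single-symbol probe set. Members and lists were chosen with earlier results of these data known. All members could be named, and of both other lists the called genes with the 2 highest and 2 lowest changes. Cell type markers, *NFE2L1* and the second *PSMC4* probe set stand outside this rule. Per the labels, the arrays of a group are biological replicates from separate occasions.

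Alternative settings changed the filter (none, or the 75th percentile in place of the median), the scaling (a further quantile normalization, or subtraction of array medians), the model (a replicate block, array weights, a variance prior with a trend, or Student's t-test) and the probe sets (their mean per gene). Each array was also left out once. After the values were seen, 3 kinds of setting were added, which dropped both arrays of number 3 or of number 4, took the brightest probe set that has a gene ID, or took off a lowess trend on gene length (span 0.3). Promoters (250 bases before to 50 after the start) were matched by symbol.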

Additional observations from a re-analysis of the deposited data

Results flagged for a closer look

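In each group of 4 arrays the distance of the highest or lowest array from the others was compared with Dixon's critical value for 4 values, in 106 groups of values, of which chance passes about 1 in 20. A total of 6 array values passed, 5 of them in replicate 4. In si*NS*, replicate 4 was high for *PSMD1* (14.9, the others 14.21 to 14.31), for *PSMD11* (15.23, the others 14.29 to 14.37) and for *PSMF1* (15.91, the others 15.06 to 15.15). *ADRM1* was high in replicate 4 of both groups, at 10.6 in si*EPB41L4A* (the others 9.55 to 9.72) and at 11.87 in si*NS* (the others 10.65 to 10.78). *NFE2L2* was high in replicate 3 of si*NS* (12.15, the others 11.77 to 11.81).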

How the results depend on the processing

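The number of proteasome genes called lower was 1 and depended on the processing, while the alternatives called 0 higher (0 also at an unadjusted p under 0.05 in the limma fit of all arrays) and the median change stayed between -0.53 and -0.34. Called lower were 0 genes with no filter, 4 with the filter at the 75th percentile (of 42 genes), 0 after centring on the median, 4 with a trended prior variance, 0 by Student's t-test, 3 with array weights and 0 when all probe sets of a gene were averaged. Among settings added after the values were seen, the counts were 0 without both arrays numbered 3 and 2 without both numbered 4. They were 2 with the brightest probe set that has a gene ID and 4 with the length trend removed, where only 22118 genes were tested. Leaving out 1 array gave 0 to 3 calls and a median of -0.53 to -0.35. The count was 3 without si*EPB41L4A* replicate 4 and 0 without any other single array. The cause of these shifts was not tested.

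With a replicate block, 8 proteasome genes were called lower (*PSMA6*, *PSMB5*, *PSMB6*, *PSMB8*, *PSMC3*, *PSMC4*, *PSMD8* and *PSME1*). Deviations of same-numbered arrays correlated at 0.228, 0.0746, 0.201 and 0.385 over all probe sets and at 0.505, 0.271, 0.693 and 0.683 over the proteasome genes. All of these were positive, and 1 over all probe sets was under 0.1. Since the sources state no pairing, the main fit used no block. Whether same-numbered arrays share an occasion is not known.

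Changes near 0 turned sign. *B2M* was at -0.01 without both arrays numbered 4, *ERAP2* at -0.15 without both numbered 3, *PSMD4* at 0.01 with the length trend removed and *PSMG2* at 0.07 after quantile normalization again. On leaving out 1 array, the range was -0.21 to 0.37 for *B2M*, -0.12 to 0.28 for *ERAP2*, -0.36 to 0.03 for *PSMB3*, -0.34 to 0.13 for *PSMD11*, -0.05 to 0.35 for *PSMD12*, -0.16 to 0.28 for *PSMD14*, -0.54 to 0.07 for *PSMD5* and -0.17 to 0.07 for *PSMG2*. Over all results and alternatives, 1031 values kept direction and side of the threshold, 25 gained and 33 lost the threshold, and 22 turned sign.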
